A study of Homo sapiens with 8 samples.

Results

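The 10 genes described here mark haematopoietic stem and progenitor cells and the leukaemias that resemble them: the receptor kinase genes KIT and FLT3, the surface antigen genes CD34 and PROM1, the transcription factor genes MYB, GATA2, ERG, MEIS1 and HOXA9, and BAALC. They were taken by gene name out of 55765 names in the deposited gene tables, and each had 1 row in every library. The study sequenced RNA of 2 human leukaemia cell lines, both acute myeloid, with and without 40 uM chlorprothixene, a thioxanthene antipsychotic that blocks dopamine and other receptors. Kasumi-1 is a myeloblastic line that carries RUNX1-RUNX1T1, and NB4 a promyelocytic line that carries PML-RARA. Untreated cells and cells kept 6, 12 and 24 h with the drug were sequenced, 1 library per line and condition and 8 in all, so no condition has a replicate and no value below carries a spread between cultures. Both lines are single established lines, no vehicle is named in the labels, and 1 untreated library serves all 3 times of its line, so drug and time in culture cannot be told apart.

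Stem and progenitor cells of the bone marrow carry KIT, the receptor for stem cell factor, and FLT3, the receptor for FLT3 ligand, and signalling from both keeps progenitors alive and dividing. A set of transcription factors that includes GATA2, ERG, RUNX1, TAL1, LYL1, LMO2 and FLI1 binds together at genes of these cells, while MYB and the HOXA and MEIS1 pair sustain self-renewal. Most of these genes are turned off as cells mature; leukaemias with RUNX1-RUNX1T1 usually carry KIT and CD34 at the surface, and promyelocytic leukaemias usually lack CD34.

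Of these genes 4 (KIT, CD34, ERG and BAALC) reached 1 TPM in Kasumi-1 and not in NB4 (BAALC by TPM, not by deposited coverage), MYB and GATA2 were abundant in both lines, FLT3 was low in both, and HOXA9, MEIS1 and PROM1 lay at or near the floor. TPM is abundance scaled for length and to the same total in every library. In Kasumi-1, KIT and CD34 were about 6-fold lower at 6 h and stood at 42.6% and 51.5% of their untreated levels at 24 h. ERG and MYB were lower at 6 h and above their untreated levels at 24 h. In NB4, FLT3 and MYB were lower at each time than in the untreated library, and GATA2 was higher at each time. None of these differences with the drug passed a test over all genes, nor did the difference between the lines of MYB, GATA2 or FLT3.

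The lines could be told by a gene that the choice of members did not use. RUNX1T1, the partner of the Kasumi-1 fusion, had 92.5, 80.9, 58.0 and 81.7 TPM in Kasumi-1 (untreated, 6, 12 and 24 h) and at most 0.0476 TPM in NB4. Between 13358 and 14582 genes reached 1 TPM in a library, and the commonest ratio of coverage to FPKM, which moves with sequencing depth, lay between 7.08 and 9.83. The mitochondrial genome's share of the TPM was 8.73%, 7.94%, 10.6% and 17.1% in Kasumi-1 and 5.04% to 6.71% in NB4, so the Kasumi-1 library of 24 h stands apart in this respect. The 8 myeloid blast markers (MPO, AZU1 and others) summed to 13630 to 21110 TPM in Kasumi-1 and 2280 to 6975 TPM in NB4. Of the erythroid, megakaryocyte, lymphoid, endothelial and epithelial lists, the highest sum in any library was 29.7 TPM, for the epithelial list in Kasumi-1 at 6 h, of which EPCAM gave 29.7 TPM; HBB, PF4, MS4A1 and KRT19 were listed at 0 throughout. Fewer cells that carry a gene and less RNA of it per cell cannot be told apart in such libraries.

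KIT encodes the receptor tyrosine kinase for stem cell factor (ENSG00000157404.11; chromosome 4, 55524085 to 55606881, plus strand, hg19). In Kasumi-1 it had 449.8 TPM untreated and 72.5, 115.1 and 191.6 TPM at 6, 12 and 24 h. In NB4 it had 0.0294, 0.311, 0.0589 and 0.0699 TPM at the same conditions. Every Kasumi-1 library was above every NB4 library, and within Kasumi-1 the untreated library was the highest and the 6 h library the lowest. FLT3, the receptor for FLT3 ligand (ENSG00000122025.10; chromosome 13, 28577411 to 28674729, minus strand, hg19), had 2.34, 2.12, 1.64 and 1.58 TPM in Kasumi-1 (untreated, 6, 12 and 24 h) and 5.33, 2.36, 0.898 and 1.44 TPM in NB4. The FLT3 ranges of the lines overlapped, and its highest value was that of untreated NB4.

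CD34 encodes a sialomucin of the progenitor surface (ENSG00000174059.12; chromosome 1, 208057594 to 208084747, minus strand, hg19). It had 111.8, 18.3, 36.5 and 57.5 TPM in Kasumi-1 (untreated, 6, 12 and 24 h) and 0.0273, 0.0290, 0 and 0.0358 TPM in NB4. As for KIT, the lines did not overlap, and the order of the Kasumi-1 libraries was the same, with untreated highest and 6 h lowest. PROM1, which encodes the stem cell antigen CD133 (ENSG00000007062.7; chromosome 4, 15964699 to 16086001, minus strand, hg19), reached at most 0.0172 TPM in Kasumi-1 and 0.0209 TPM in NB4, so neither line carried it at a level that can be followed.

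Among the transcription factors, ERG, an ETS factor (ENSG00000157554.14; chromosome 21, 39751949 to 40033704, minus strand, hg19), had 64.4, 40.4, 54.3 and 84.9 TPM in Kasumi-1 and 0.0387, 0, 0.0408 and 0.0475 TPM in NB4 in the same order. The lines did not overlap; in Kasumi-1 the lowest library was that of 6 h and the highest that of 24 h. MYB, a factor that drives progenitor proliferation (ENSG00000118513.14; chromosome 6, 135502453 to 135540311, plus strand, hg19), had 387.1, 231.5, 381.7 and 513.1 TPM in Kasumi-1 and 374.7, 221.2, 261.1 and 212.4 TPM in NB4. The untreated and 6 h levels of the lines lay close together, and at 24 h Kasumi-1 held its highest and NB4 its lowest value. GATA2, a zinc finger factor of stem cells, mast cells and megakaryocytes (ENSG00000179348.7; chromosome 3, 128198270 to 128212028, minus strand, hg19), had 77.6, 91.6, 77.7 and 70.8 TPM in Kasumi-1 and 47.5, 64.9, 90.2 and 139.8 TPM in NB4. The Kasumi-1 values stayed within a 1.29-fold range, while the NB4 values were ordered by time over a 2.94-fold range.

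The homeobox genes were low. HOXA9 (ENSG00000078399.11; chromosome 7, 27202054 to 27210117, minus strand, hg19) had 0.367, 0.747, 0.388 and 1.11 TPM in Kasumi-1 and 0.801, 0.780, 0.832 and 1.55 TPM in NB4, reaching 1 TPM at 24 h in each line and at no other time. MEIS1, its DNA-binding partner (ENSG00000143995.15; chromosome 2, 66660584 to 66801001, plus strand, hg19), was listed at 0 in all 4 Kasumi-1 libraries and had 1.31, 0.256, 0.498 and 0.380 TPM in NB4. An entry of 0 can be a failed estimate. BAALC, named for brain and acute leukaemia and a marker of primitive leukaemias (ENSG00000164929.12; chromosome 8, 104152938 to 104242533, plus strand, hg19), had 14.3, 7.20, 7.50 and 10.3 TPM in Kasumi-1 and at most 0.0645 TPM in NB4. Every Kasumi-1 value of BAALC lay above the NB4 values. The deposited mean read coverage of BAALC in Kasumi-1 was only 2.60, 1.11, 1.51 and 1.69, and its ratio to FPKM was 0.0383 to 0.0535 of the commonest ratio in the library, against 0.208 to 0.268 for ERG and 0.875 to 0.884 for KIT, so the BAALC level differs between the deposited measures. Scaled to TPM, that coverage came to 0.766, 0.276, 0.376 and 0.532, under 1 in every Kasumi-1 library. This scaling is rough, since only 12.25% to 14.23% of genes above 1 FPKM in a library lay at its commonest ratio. MYB, over both lines, lay at 0.425 to 0.478 of it. For MEIS1 the ratio in NB4 was 0.0544 to 0.0885, and its scaled coverage at most 0.0714, so its level carries the same doubt.

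**Figure D1:**
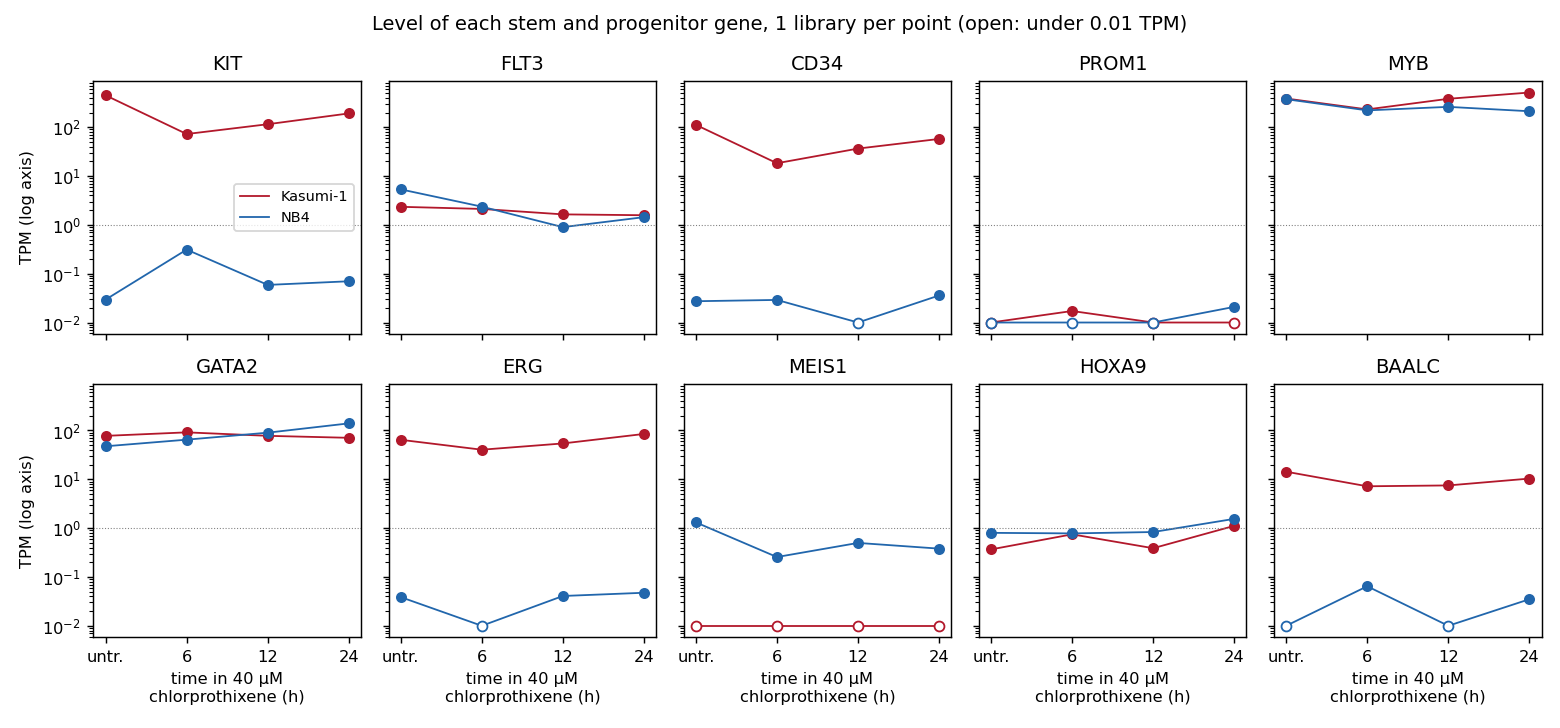
Level of each gene in TPM (log axis) in untreated cells and after 6, 12 and 24 h in 40 uM chlorprothixene, Kasumi-1 in red and NB4 in blue, 1 library per point, open points under 0.01 TPM and the dotted line at 1 TPM. KIT, CD34, ERG and BAALC are above 1 TPM in Kasumi-1 and under it in NB4, MYB and GATA2 are high in both lines, and KIT and CD34 in Kasumi-1 are lowest at 6 h and remain below untreated at 24 h.

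By their medians over the 4 libraries of Kasumi-1, the order was MYB (384.4 TPM), KIT (153.4 TPM), GATA2 (77.7 TPM), ERG (59.4 TPM), CD34 (47.0 TPM), BAALC (8.92 TPM), FLT3 (1.88 TPM) and HOXA9 (0.567 TPM). Each neighbour from MYB down to CD34 overlapped the next in range, whereas CD34, BAALC, FLT3 and HOXA9 were separated without overlap. In NB4 the order was MYB (241.1 TPM), GATA2 (77.5 TPM), FLT3 (1.90 TPM), HOXA9 (0.817 TPM) and MEIS1 (0.439 TPM), with KIT, ERG, CD34, BAALC and PROM1 under 0.1 TPM. MYB and GATA2 did not overlap each other there or FLT3; the ranges of FLT3, HOXA9 and MEIS1 did.

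The first comparison asked which line carries each gene. The difference Kasumi-1 minus NB4 was fitted with limma on log2(TPM + 1) over the 14650 genes that averaged 1 TPM or more, with time as a term, so that the 4 conditions of a line stand as its repeats. Of the 10 genes 7 were tested; HOXA9, MEIS1 and PROM1 fell under the filter. KIT was higher in Kasumi-1 by 7.21 (SE 0.43, adjusted p = 2.19e-05), ERG by 5.86 (SE 0.20, adjusted p = 2.55e-06), CD34 by 5.51 (SE 0.38, adjusted p = 4.09e-05) and BAALC by 3.36 (SE 0.22, adjusted p = 3.1e-05) on that scale. The pseudocount bounds these values, since NB4 lies near 0. These 4 genes passed the filter through Kasumi-1 alone and so had to differ, and their count is not read against the 27.8% of all genes that were higher in Kasumi-1. All 4 Kasumi-1 libraries were above all 4 NB4 libraries for the same 4 genes, and for 24.5% of all genes tested.

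MYB, GATA2 and FLT3, the members present in both lines, did not pass this test. The MYB difference was 0.48 (SE 0.21, adjusted p = 0.0936), that of GATA2 0.00 (SE 0.27, adjusted p = 0.998) and that of FLT3 -0.12 (SE 0.25, adjusted p = 0.713). GATA2 in Kasumi-1 was above NB4 untreated and at 6 h and below it at 12 and 24 h. With no filter on low values MEIS1 was lower in Kasumi-1 by the same model (log2 difference -0.65, SE 0.16, adjusted p = 0.0318), at levels where 1.31 TPM was the highest value and coverage gave far less.

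**Figure D2:**
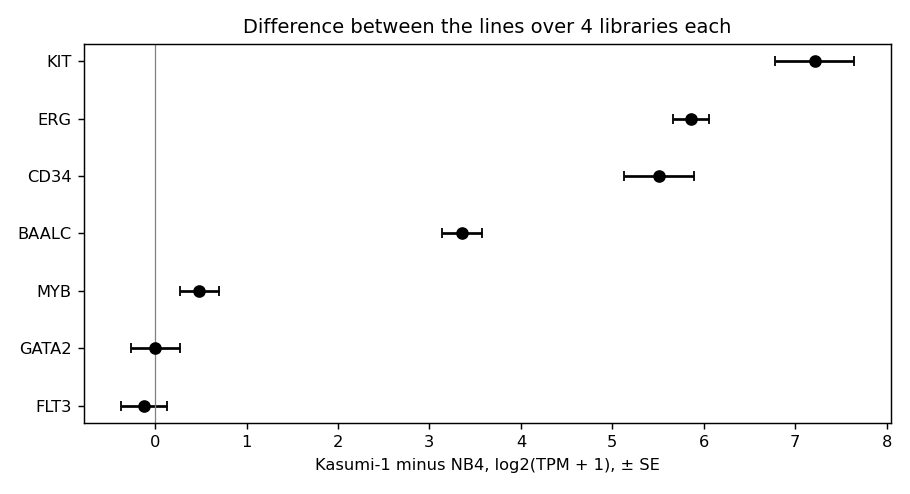
Difference between the lines, Kasumi-1 minus NB4, on the log2(TPM + 1) scale with its SE from limma for the 7 genes tested, 4 libraries per line. KIT, ERG, CD34 and BAALC lie between 3.36 and 7.21, and MYB, GATA2 and FLT3 between -0.12 and 0.48.

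The second comparison asked what differed with the drug in Kasumi-1 and whether a loss had been made up by 24 h. A change here is treated minus untreated on the log2(TPM + 1) scale. KIT differed from untreated by -2.62, -1.96 and -1.23 at 6, 12 and 24 h, and CD34 by -2.55, -1.59 and -0.95. At 6, 12 and 24 h KIT stood at 16.1%, 25.6% and 42.6% of its untreated level and CD34 at 16.4%, 32.7% and 51.5%. Both genes were thus lowest at 6 h and closer to untreated at each later time, and neither reached its untreated level.

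At 6 h the change of KIT was the 7th and that of CD34 the 11th lowest of 10687 genes with at least 5 TPM in untreated Kasumi-1. By 24 h KIT had regained 53.1% and CD34 62.8% of the log2 fall. Among the 14650 genes, 2.99% were at least 2-fold lower at 6 h in Kasumi-1, and among the members tested KIT and CD34 were. Of those 438 genes, 71.2% were within 2-fold of untreated at 24 h, as CD34 was and KIT was not. A regained share of 50% or more was seen in 48.4% of them and in both members, so a partial return was common among genes that were low at 6 h. The step between 12 and 24 h, which uses neither the 6 h nor the untreated library, was upward for both members, for 70.5% of the 438 genes and for 51.0% of all genes tested.

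The other members present in Kasumi-1 lay nearer to their untreated levels. BAALC differed from untreated by -0.90, -0.85 and -0.43 at 6, 12 and 24 h and regained 52.0% of its 6 h fall. MYB differed from untreated by -0.74, -0.02 and 0.41, and ERG by -0.66, -0.24 and 0.39. For MYB and ERG the 24 h library was above the untreated one, at 132.5% and 131.7% of it. GATA2 differed from untreated by 0.24, 0.00 and -0.13, and FLT3 by -0.10, -0.34 and -0.38, neither lowest at 6 h. The median gene moved by -0.01, -0.08 and -0.04. Once TPM was rescaled to leave out mitochondrial genes and the 10 most abundant ones, the 24 h changes were -1.08 for KIT and -0.80 for CD34, so the regain was larger on that scale.

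**Figure D3:**
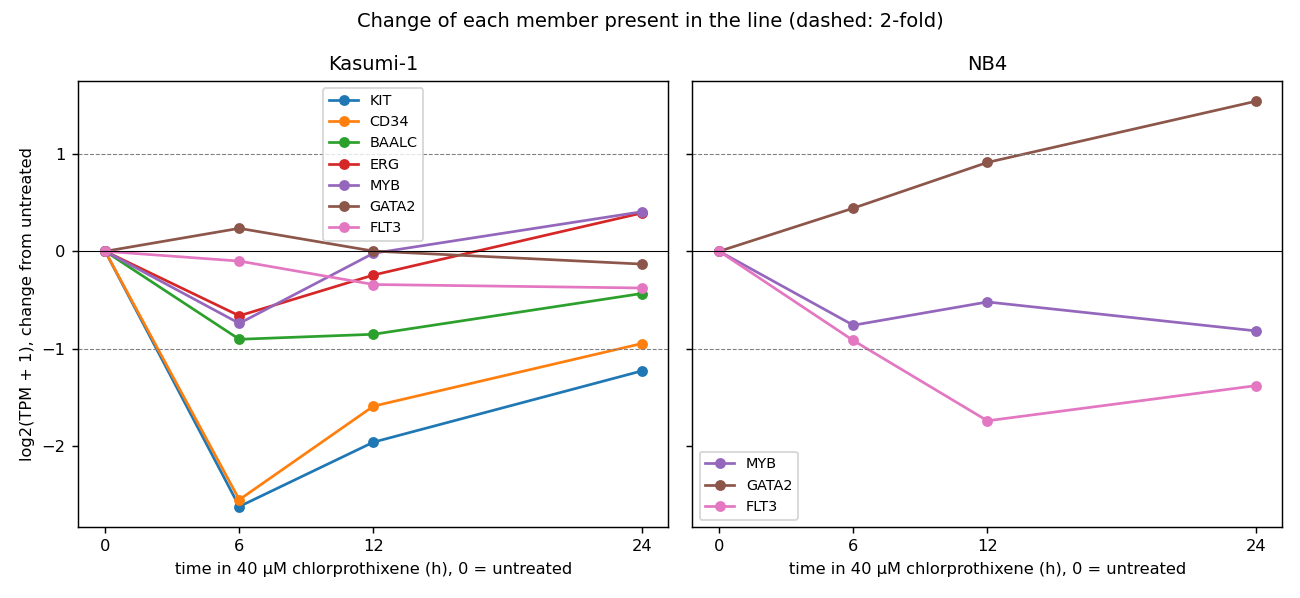
Change on the log2(TPM + 1) scale, treated minus untreated within a line, against time in 40 uM chlorprothixene, Kasumi-1 at left and NB4 at right, for the members present in each line, 1 library per point and dashed lines at 2-fold. In Kasumi-1, KIT and CD34 lie at -2.62 and -2.55 at 6 h and nearer to 0 at 24 h, and MYB and ERG lie above 0 at 24 h; in NB4, GATA2 lies at 1.54 at 24 h while FLT3 and MYB lie below 0 at every time.

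The test of the Kasumi-1 response compared the mean of the 3 treated libraries with the untreated one, against the spread among times pooled over both lines. In this limma fit 0 of 7 members passed, while 0.314% of all genes did in either direction. Before adjustment, p was under 0.05 for 3 members that were lower and 0 that were higher, and for 12% and 8.18% of all genes. KIT was nearest, with a mean change of -1.93 (SE 0.46, adjusted p = 0.0924), followed by CD34 at -1.69 (SE 0.52, adjusted p = 0.141) and BAALC at -0.73 (SE 0.27, adjusted p = 0.193), each lower in 3 of 3 treated libraries. The spread of KIT and CD34 includes the difference between 6 and 24 h. Without the Kasumi-1 library of 24 h KIT passed, with a change of -2.29. That library is the treated one in which KIT was nearest to untreated, so leaving it out favours the call. The call is therefore not read as a result about KIT.

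**Figure D4:**
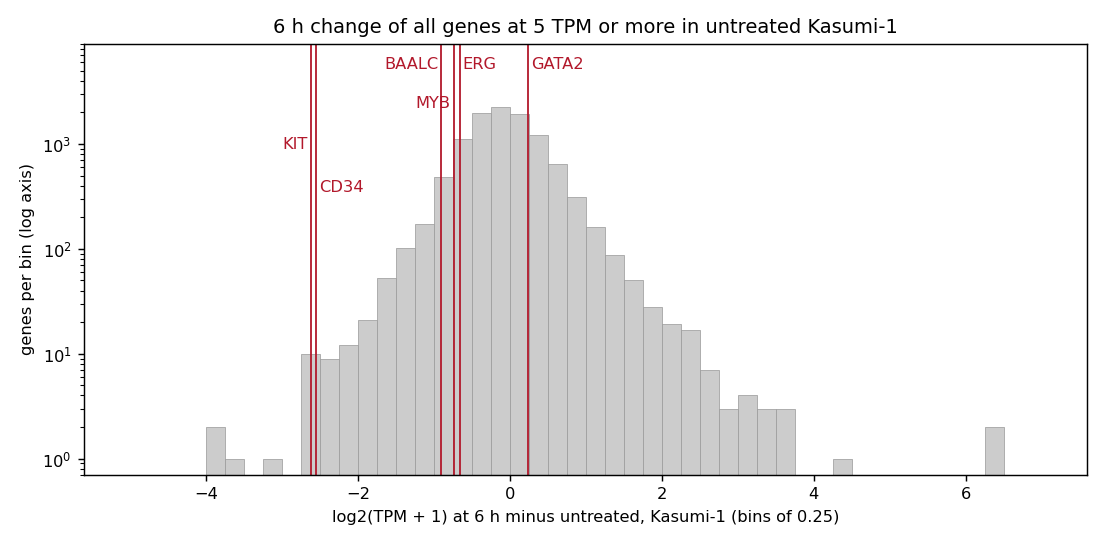
Number of genes (log axis) by their change at 6 h in Kasumi-1 on the log2(TPM + 1) scale, in bins of 0.25, for the 10687 genes with at least 5 TPM in untreated Kasumi-1, with red lines at the 6 members among them. KIT at -2.62 and CD34 at -2.55 lie in the far left tail, while BAALC, MYB, ERG and GATA2 lie between -0.90 and 0.24.

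In NB4 only MYB, GATA2 and FLT3 could be followed. FLT3 differed from untreated by -0.91, -1.74 and -1.38 at 6, 12 and 24 h, and stood at 44.2%, 16.8% and 27.0% of its untreated TPM, lower at 24 h than at 6 h. MYB differed from untreated by -0.76, -0.52 and -0.82, with no return by 24 h. GATA2 differed from untreated by 0.44, 0.91 and 1.54, and its 24 h level was 294.5% of the untreated one. MEIS1, under the filter, was lower in all 3 treated libraries than untreated. At 6 h 2.27% of all genes were at least 2-fold lower in NB4 on the log2(TPM + 1) scale, and 0 of the members tested were. KIT, CD34, ERG and BAALC, under 1 TPM in untreated NB4, could not be 2-fold lower on that scale.

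The NB4 response by limma passed for 0 of 7 members, against 0.799% of all genes. KIT, CD34, ERG and BAALC stayed under 1 TPM in NB4 and had almost no room to fall, so these counts bear on MYB, GATA2 and FLT3. At an unadjusted p under 0.05 there was 1 member higher (GATA2) and 1 lower (FLT3), beside 8.3% and 6.86% of all genes. FLT3 had a mean change of -1.34 (SE 0.34, adjusted p = 0.136), GATA2 of 0.96 (SE 0.37, adjusted p = 0.280) and MYB of -0.70 (SE 0.38, adjusted p = 0.440), each of one sign in 3 of 3 treated libraries. Among markers of mast cells and basophils, cells that also carry GATA2, some were higher in NB4 at 12 and 24 h and others lower. The 7 markers of that list summed to 144.1, 128.1, 453.4 and 908.8 TPM in NB4 (untreated, 6, 12 and 24 h), most of it HDC, the histidine decarboxylase gene, with 140.1, 122.9, 426.0 and 848.7 TPM. The sum and HDC were below untreated at 6 h, when GATA2 was above it. The tryptase gene TPSAB1 had 0.8345, 2.14, 11.7 and 27.3 TPM in NB4, and TPSB2 1.045, 1.85, 14.8 and 32.3 TPM. Both were higher at each later time. Of the list, 3 markers averaged 1 TPM or more. At 24 h in NB4 3 were at least 2-fold higher and 0 lower, against 6.51% and 2.88% of all genes. FCER1A stood at 0 TPM in NB4, CPA3 at most 1.25 TPM and MS4A2 at most 0.829 TPM. CPA3 and MS4A2 were below untreated in every treated NB4 library. In Kasumi-1, where GATA2 stayed level, the list summed to 7.25, 35.5, 76.2 and 117.5 TPM, mainly the tryptase gene TPSB2. The part of such markers in the GATA2 values was not tested.

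The lines were then compared in their responses. In the limma test of the response difference, Kasumi-1 minus NB4, 0 of 7 members passed, while 0.13% of all genes did; before adjustment, p was under 0.05 for 1 member that was lower and 0 that were higher, and for 6.37% and 4.22% of all genes. The lower one was KIT, with a difference of -2.08 (SE 0.65, adjusted p = 0.361); CD34 had -1.69 (SE 0.73, adjusted p = 0.474). NB4 held at most 0.311 TPM of KIT and 0.0358 TPM of CD34, so these differences are those of Kasumi-1 nearly alone. FLT3 had 1.07 (SE 0.48, adjusted p = 0.488), GATA2 -0.93 (SE 0.52, adjusted p = 0.572) and MYB 0.58 (SE 0.53, adjusted p = 0.748). The 24 h levels of MYB, 513.1 TPM in Kasumi-1 and 212.4 TPM in NB4, are a contrast between 2 single libraries.

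The shared response, in which the lines serve as repeats of each other, passed for 0 of 7 members by limma, against 0.0273% of all genes. Before adjustment, p was under 0.05 for 1 member that was lower and 0 that were higher, and for 11.1% and 9.3% of all genes. KIT, CD34, ERG and BAALC stayed under 1 TPM in NB4 and could hardly move there. The 1 of 7 is therefore not read as a result about the members. That member was FLT3, at -0.81 (SE 0.29, adjusted p = 0.194), lower in 6 of 6 treated libraries. MYB was at -0.41 (SE 0.24, adjusted p = 0.385) and lower in 5 of 6. The contrast of 24 h minus 6 h in the same model called 0% of all genes and 0 members by limma; before adjustment, p was under 0.05 for 593 higher genes, 559 lower genes and 0 members. CD34 had a step of 0.80 (SE 0.54, adjusted p = 0.704) and KIT of 0.55 (SE 0.61, adjusted p = 0.824), where NB4 held almost none of either.

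KIT and CD34 followed similar courses in Kasumi-1. Both lay in the far tail at 6 h, where few genes lie, so a near rank between them adds little to that fall. By Euclidean distance over the 3 changes, among 10686 other genes with at least 5 TPM in untreated Kasumi-1, the genes nearest to KIT were RP11-480I12.5 (0.368), NPR3 (0.440), TRAV8-5 (0.462), CD34 (0.469) and AC010547.9 (0.646). Those nearest to CD34 were TRAV8-5 (0.0556), NPR3 (0.135), RP11-480I12.5 (0.244), PDE4B (0.403) and AC010547.9 (0.422), and KIT was the 8th. NPR3, which encodes the natriuretic peptide clearance receptor, had 30.2, 4.77, 8.84 and 15.1 TPM in Kasumi-1 and at most 0.569 TPM in NB4. PDE4B, a cyclic AMP phosphodiesterase gene, had 44.1, 8.98, 13.9 and 25.1 TPM in Kasumi-1 and 14.5, 33.4, 27.2 and 19.1 TPM in NB4, where every treated value was above the untreated one. These distances rest on 4 libraries of 1 line, all sharing the untreated one.

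The promoters of KIT and CD34 are shown because these members followed similar courses, and one of ERG because it held motifs of progenitor factors. RefSeq windows on GRCh38.p14, from 250 bases before to 50 bases after a transcript start, were found for 9 of the 10 members, in 16 windows; BAALC had none in that table. Searched on both strands, the RUNX motif TGTGGT was present in 13.1% of 35116 windows, AGATAA, bound by factors such as GATA2, in 10.3%, the ETS motif AGGAAG in 33.6% and the MYB motif TAACNG in 20.8%. The 250 bases before the start are printed on the gene's strand, with matches in capitals, at chr4:54657707-54657956 (plus strand) for KIT, chr1:207911126-207911375 (minus strand) for CD34 and chr21:38498505-38498754 (minus strand) for 1 start of ERG.
KIT: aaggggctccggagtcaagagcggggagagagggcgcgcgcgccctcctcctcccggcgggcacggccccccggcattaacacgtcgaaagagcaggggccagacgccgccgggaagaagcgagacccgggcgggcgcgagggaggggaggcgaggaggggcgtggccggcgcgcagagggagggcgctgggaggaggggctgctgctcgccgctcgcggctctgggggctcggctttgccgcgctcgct
CD34: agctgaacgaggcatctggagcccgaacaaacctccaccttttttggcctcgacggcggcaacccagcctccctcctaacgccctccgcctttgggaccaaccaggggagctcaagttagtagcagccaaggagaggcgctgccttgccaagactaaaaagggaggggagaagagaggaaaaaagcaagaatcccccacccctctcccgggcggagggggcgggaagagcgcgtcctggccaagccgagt
ERG: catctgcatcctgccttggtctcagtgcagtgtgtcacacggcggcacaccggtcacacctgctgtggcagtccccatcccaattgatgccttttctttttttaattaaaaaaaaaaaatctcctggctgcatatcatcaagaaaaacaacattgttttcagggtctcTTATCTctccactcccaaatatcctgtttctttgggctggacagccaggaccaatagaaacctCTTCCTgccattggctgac
The KIT and CD34 windows held none of the 4 motifs, as did the windows of MYB, FLT3 and HOXA9, and their 250 printed bases were 76.4% and 61.6% G or C. The ERG stretch, at 46.4% G or C, held a GATA match at bases 169 to 174 and an ETS match at bases 232 to 237, both on the opposite strand and so printed as their complements read backwards. The MEIS1 window held a RUNX and a MYB match, 1 of the GATA2 windows and 1 of the PROM1 windows an ETS match, and another ERG window a MYB match. A match describes letters in a window and is not a bound site.

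The partner genes of the members were followed in lists. Of the 7 genes of the stem cell transcription factor heptad, which includes ERG and GATA2, 6 were higher in Kasumi-1, 0 were lower and GATA2 did not pass, with a median difference of 0.80 against -0.00 over all genes, of which 27.8% were higher and 27.5% lower. ERG and TAL1 passed the filter through Kasumi-1 alone and so had to differ. TAL1, a bHLH factor, had 40.2, 21.2, 19.5 and 27.8 TPM in Kasumi-1 and at most 0.221 TPM in NB4. RUNX1, the other partner of the Kasumi-1 fusion, had 83.1 to 121.9 TPM in Kasumi-1 and 45.6 to 60.3 TPM in NB4 (log2 difference 0.998, SE 0.16, adjusted p by limma = 0.00179). Gene-level values cannot tell reads of RUNX1 itself from reads of its part in the fusion transcript. The share of each in this difference was not tested. LYL1, LMO2 and FLI1 differed by 0.50, 0.80 and 0.77. FLI1, an ETS factor like ERG, had 93.2 TPM in treated Kasumi-1 at 24 h against 75.3 TPM untreated, and 36.5 TPM in treated NB4 at 24 h against 71.2 TPM untreated. With the drug 0 of the 7 genes passed in either line by limma, as 0.314% of all genes did in Kasumi-1 and 0.799% in NB4. Before adjustment, p was under 0.05 in Kasumi-1 for 0 higher and 1 lower, beside 8.18% and 12% of all genes. In NB4 it was under 0.05 for 1 higher and 1 lower, beside 8.3% and 6.86%. Counts this small are not read as a result about the list.

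The HOX and TALE list, to which HOXA9 and MEIS1 belong, ran the other way: of 28 genes 13 were tested, 2 were higher and 9 lower in Kasumi-1, against 27.8% and 27.5% of all genes, with a median difference of -1.64. HOXA4, HOXA13, HOXB7, HOXB8, HOXB9 and PBX3 passed the filter through NB4 alone, and HOXA5 through Kasumi-1 alone, so these 7 had to differ. HOXA10, the neighbour of HOXA9 in its cluster, had 20.2 to 21.4 TPM in Kasumi-1 and 59.9 to 70.9 TPM in NB4 (log2 difference -1.64, SE 0.11). HOXA13 was at most 0.0203 TPM in Kasumi-1 and 6.45 to 12.6 TPM in NB4. HOXA5 was one of the 2 higher in Kasumi-1, with 21.6, 10.2, 16.9 and 16.9 TPM there (untreated, 6, 12 and 24 h) and at most 1.15 TPM in NB4. It was the 1 tested gene of the list at least 2-fold lower at 6 h in Kasumi-1, where 2.99% of all genes were. None of the 13 was 2-fold higher then, and the share of all genes that were is not given here. By limma 0 of the 13 passed with the drug in either line, against 0.314% of all genes in Kasumi-1 and 0.799% in NB4.

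Of 30 other stem and progenitor genes, 19 were tested, 10 were higher and 7 lower in Kasumi-1, against 27.8% and 27.5% of all genes, with a median difference of 0.55; 1 passed the filter through Kasumi-1 alone and 4 through NB4 alone. At 6 h in Kasumi-1, 5 of the 19 were at least 2-fold lower than untreated, against 2.99% of all genes, and at 24 h none of the 19 was. The list was chosen with earlier results of these data known, so this count is not read as an excess. The 5 were GFI1, CD33, IKZF2, NPR3 and SOX4. GFI1, a transcriptional repressor of progenitors, had 324.6, 114.4, 155.9 and 177.1 TPM in Kasumi-1 and 177.5, 86.9, 78.1 and 73.4 TPM in NB4, lower in every treated library of both lines. SOX4, an HMG box factor named here after its values were seen, had 104.1, 30.2, 50.7 and 69.9 TPM in Kasumi-1 and 12.3 to 13.7 TPM in NB4. IL3RA, the alpha chain of the interleukin-3 receptor, was higher in every treated library, with 4.38, 30.5, 21.6 and 11.1 TPM in Kasumi-1 and 1.39, 4.22, 7.65 and 10.6 TPM in NB4. None of the 19 passed a test of the drug response by limma; before adjustment, p in Kasumi-1 was under 0.05 for 1 that was higher and 5 that were lower, beside 8.18% and 12% of all genes.

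Ligands and signalling genes of the KIT and FLT3 pathways lay in both directions. Of 19 listed 18 were tested, and 6 were higher and 3 lower in Kasumi-1, against 27.8% and 27.5% of all genes. SOCS1, 1 of the 3 lower, passed the filter through NB4 alone. With the drug 0 passed by limma, against 0.314% of all genes in Kasumi-1 and 0.799% in NB4. Before adjustment, p in Kasumi-1 was under 0.05 for 4 that were higher and 1 that was lower, beside 8.18% and 12% of all genes. At 6 h in Kasumi-1, 2 of the 18 were at least 2-fold lower, against 2.99% of all genes, and 1, PTPN6, was at least 2-fold higher. The share of all genes that were 2-fold higher then is not given here. The 2 lower genes are named here after their values were seen. PIK3R1, a regulatory subunit of phosphoinositide 3-kinase, had 65.1, 24.5, 36.0 and 49.3 TPM in Kasumi-1 and 16.9 to 22.5 TPM in NB4, and the adaptor gene SLA2 had 32.8, 15.7, 22.1 and 28.7 TPM in Kasumi-1 and 1.04 to 2.96 TPM in NB4. PTPN6, the phosphatase SHP-1 that restrains receptor kinases, had 52.2, 258.0, 210.8 and 106.6 TPM in Kasumi-1 (untreated, 6, 12 and 24 h). In NB4 it had 100.8 to 142.1 TPM. A link between PTPN6 and KIT was not tested. PIK3CD, a catalytic subunit of phosphoinositide 3-kinase, had 59.1, 97.8, 80.7 and 95.2 TPM in Kasumi-1 and 62.4, 98.0, 125.3 and 105.5 TPM in NB4. In the list of the leukaemia stem cell score LSC17, which contains CD34, 10 of 17 were tested. Of these 5 were higher and 3 lower in Kasumi-1 than in NB4, against 27.8% and 27.5% of all genes. CD34 and ARHGAP22 passed the filter through Kasumi-1 alone and so had to differ. With the drug 0 passed by limma, against 0.314% of all genes in Kasumi-1 and 0.799% in NB4. In Kasumi-1, 2 of the 10 were at least 2-fold lower and 2 higher at 6 h, when 2.99% of all genes were lower. The share of all genes that were higher in Kasumi-1 at 6 h is not given here. The 2 higher genes are thus not read as an excess. At 24 h 3 were lower and 1 higher there, against 3.88% and 5.11% of all genes, with a median of -0.69. In NB4 at 24 h 0 were lower and 4 higher, against 2.88% and 6.51%. The 17 genes summed to 578.5, 442.3, 372.0 and 364.5 TPM in Kasumi-1 (untreated, 6, 12 and 24 h). LAPTM4B alone had 221, 177, 142.1 and 115.5 TPM of it. In NB4 the list summed to 203.3, 189.5, 206 and 289.3 TPM. EMP1 of that list, an epithelial membrane protein gene, had 0.173, 21.1, 3.07 and 3.14 TPM in Kasumi-1 and 0.521, 9.10, 11.4 and 29.5 TPM in NB4, and DNMT3B, a DNA methyltransferase gene, had 17.4, 11.9, 10.8 and 12.6 TPM in Kasumi-1 and 31.8, 53.8, 50.04 and 68.9 TPM in NB4.

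Some members overlap genes on the other strand, and whether counting used strand is not given in the sources used here. MYB-AS1, opposite MYB, had 3.09, 2.11, 4.53 and 9.43 TPM in Kasumi-1 and at most 2.63 TPM in NB4, small beside MYB itself. HOXA-AS4, opposite HOXA9, had 0.660, 0.300, 0.275 and 0.439 TPM in Kasumi-1 and 0.868, 0.268, 0.965 and 1.42 TPM in NB4, in the range of HOXA9 itself, so the HOXA9 values are uncertain. The genes opposite GATA2 and BAALC, RP11-475N22.4 and RP11-318M2.2, reached 9.12 and 6.69 TPM, both in Kasumi-1, so the BAALC level could share reads with its neighbour.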

How the data were processed

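Total RNA of Kasumi-1 and NB4 cells, untreated or after 6, 12 and 24 h with 40 uM chlorprothixene, was sequenced from TruSeq libraries, 1 per condition, per the labels' protocols. Reads were aligned with HISAT2 and quantified with StringTie on hg19, per the submitters' processing notes; the sources used here give no versions, options or annotation. The deposited TPM values sum to 1000000 in each library. The deposited FPKM values are scaled for length and depth. The deposited coverage, named only as such in the headers, was taken as an unscaled mean read signal over a gene. Read counts are not given, so depth was judged from the ratio of coverage to FPKM, and no interval for counting error was formed.

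Rows of 1 gene name were summed. Tests used limma 3.58.1 in R 4.3.3 (two-sided, eBayes with trend, Benjamini-Hochberg over all 14650 genes, threshold 0.05) on log2(TPM + 1); the pseudocount understates folds of low genes. The line difference, shared response and 24 h minus 6 h had line and time as terms (3 residual degrees of freedom). The responses of each line and their difference treated a line's times as its repeats and left 4 residual degrees of freedom, so p-values measure spread among times or lines, not among cultures. Falls and regains within a line have no test. The fits were tested on simulated data. Python 3.11.15, pandas 2.3.3, numpy 2.4.6 and matplotlib 3.10.9 read and drew the tables.

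The members and the lists were chosen with earlier results of these data known. Named besides the members were, per list and line, up to 3 genes with at least 5 TPM in a library of that line. Their changes had one sign at all 3 times, and they were ranked by their smallest absolute change, largest first. They were thus chosen by the size of their change in these data. The 5 genes nearest to KIT and to CD34 were also named. Other list genes given by value, such as CD33, IKZF2, SOX4 and the cell type markers, were named after their values were seen or as markers. Alternatives were another pseudocount, other filters, FPKM, TPM without mitochondrial and the 10 most abundant genes, median centring, other model terms, leaving out each library, and coverage scaled to TPM, which was added after the data were seen.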

Additional observations from a re-analysis of the deposited data

How the results depend on the processing

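No paired analysis was possible because each condition has 1 library and replicate numbers pair nothing; the fits with line and time as terms already match the lines by condition, and taking the times of a line as repeats instead changed no member's call. KIT, CD34 and ERG were higher in Kasumi-1 under all 16 alternatives of the line difference (adjusted p by limma at most 0.000664, 0.00094 and 0.000134), and BAALC under the 14 that tested it. BAALC was not tested with coverage or with a mean of at least 5 TPM. All of these genes passed the filter through Kasumi-1 alone and lay near 0 TPM in NB4. The alternatives could therefore hardly have changed these calls, and their agreement is not read as support. With no filter on low values 1 member was lower in Kasumi-1 and 1 lower in the NB4 response, MEIS1 both times (adjusted p = 0.0318 and 0.0382). Leaving out each library gave 0 to 1 members lower in the Kasumi-1 response. The 1 was KIT without Kasumi-1 at 24 h, the treated library in which KIT was nearest to untreated. Over all alternatives the adjusted p of KIT by limma lay between 0.0415 and 0.205. At a fold of 1.5 in place of 2, 5 members were lower at 6 h in Kasumi-1, 3 of them within that fold at 24 h and 5 with 50% regained; in NB4 2 (FLT3 and MYB) were lower at 6 h, and 1 (FLT3) with a pseudocount of 0.1. No member passed the shared response, the response difference or 24 h minus 6 h under any alternative run. Counts over all genes moved more with the settings: the shared response called 4 higher and 0 lower genes, and 0 to 78 and 0 to 55 under alternatives; the response difference 6 and 13, and 0 to 256 and 0 to 272; the Kasumi-1 response 30 and 16, and 6 to 164 and 0 to 475; the NB4 response 91 and 26, and 17 to 121 and 2 to 412; 24 h minus 6 h 0 and 0, and 0 to 2 and 0 to 4. The causes of these shifts were not tested. Leaving out the untreated library of a line gave no value for that line's response or for the response difference. Levels near 0 TPM rest on few reads, and no member's change within a line could be set against the spread of cultures.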

Other observations

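Genes of maturing myeloid cells also differed between the libraries. In NB4 the 12 listed markers summed to 153.3, 196.8, 332.3 and 445.6 TPM (untreated, 6, 12 and 24 h). Of the 11 that averaged 1 TPM or more, 7 were at least 2-fold higher and 1 lower at 24 h than untreated, against 6.51% and 2.88% of all genes. ITGAM, the integrin CD11b, had 8.27, 12.1, 37.1 and 44.4 TPM there, FCER1G, a shared Fc receptor chain, 33.7, 60.1, 122.1 and 151.1 TPM, and ITGAX, the integrin CD11c, 1.67, 3.02, 14.6 and 27.8 TPM. S100A9, a calgranulin, was lower at every time, with 4.66, 3.24, 2.02 and 0.768 TPM. In Kasumi-1, 9 of the 11 were at least 2-fold higher and 1 lower at 24 h, against 5.11% and 3.88% of all genes. The list summed to 475.2, 361.7, 404.4 and 401.0 TPM there, and S100A9, the 1 lower marker, had 426.2, 197.5, 127.9 and 120.1 TPM of it. FCGR1A, the high-affinity IgG receptor, had 12.3, 60.9, 95.2 and 65.4 TPM in Kasumi-1.

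Granule genes of the blast stage differed in course. CTSG, cathepsin G, had 11.6, 18.96, 6.08 and 1.98 TPM in Kasumi-1 and 464.3, 232.2, 95.1 and 31.0 TPM in NB4, and PRTN3, proteinase 3, had 5971, 5050, 2539 and 1771 TPM in Kasumi-1 and 1002, 702.7, 228.4 and 139.8 TPM in NB4, both below their untreated levels at 12 and 24 h. MPO, myeloperoxidase, had 9908, 11410, 9128 and 9340 TPM in Kasumi-1 and 4889, 3140, 2104 and 1528 TPM in NB4. AZU1, azurocidin, had 1460, 2840, 2439 and 1883 TPM in Kasumi-1, above untreated at every time, and 261.8, 196.2, 151.3 and 138.0 TPM in NB4. ELANE, neutrophil elastase, had 629.7, 1495, 703.1 and 415.5 TPM in Kasumi-1 and at most 0.759 TPM in NB4. These genes were chosen from the marker lists after their values were seen.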
